A study of Drosophila melanogaster with 9 samples.

Results

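The 7 genes described here are *Hsp83*, which encodes the cytosolic Hsp90 chaperone of *Drosophila*, and 6 of its partners in the heat shock system: *Hop*, *DnaJ-1*, *Hsc70-4*, *stv*, *Hsf* and the noncoding RNA *Hsromega*. They were taken by name from a table of 14560 gene rows. The choice by name used no values, but was made with earlier results of these data known. All 7 passed the filter on low counts that left 10799 genes for testing. The RNA came from *brat*-null larval brains, which are filled with supernumerary type II neuroblasts, the neural stem cells that give rise to intermediate neural progenitors (INPs). The study induced Insensible (Insb), an inhibitor of Notch effectors, to drive these neuroblasts toward INPs.

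All larvae were of the genotype *brat*11/*Df(2L)Exel8040* and carried *2xTub-Gal80ts*, *Wor-Gal4* and *UAS-insb*, so that the 0 hr group shares both the *brat* alleles and the transgenes with the other groups. The 0 hr group remained at 25 °C, and the 9 hr and 18 hr groups spent their last 9 or 18 hr at 33 °C, where Gal80ts no longer blocks Gal4. Hours of Insb overexpression and hours at 33 °C are therefore the same number in every group, and for heat shock genes their contributions cannot be told apart. The study's accounts of the driver differ. Its results describe *Wor-Gal4* combined with *Ase-Gal80*, a pair active in type II neuroblasts alone. Its RNA methods list *Wor-Gal4* without *Ase-Gal80*, and *Wor-Gal4* by itself is elsewhere called pan-neuroblast. The RNA is that of the whole dissected brain. Each group had 3 replicates, with 50 brains per group isolated on the same day. In such bulk RNA, fewer cells of a type and less RNA per cell cannot be told apart. The sources differ on the age of the larvae at the shift, and no age is given here for that reason.

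Cells keep proteins folded with ATP-driven chaperones that pass their clients to one another. DnaJ-type proteins deliver unfolded clients to Hsp70 and stimulate its ATPase, BAG proteins release nucleotide from Hsp70, and Hop binds Hsp70 and Hsp90 at the same time so that a client can move on to Hsp90. In mammalian cells and yeast, Hsp90 and Hsp70 hold the heat shock factor in check, and unfolded proteins free it to form trimers that bind heat shock elements. Trimeric Hsf of the fly activates the *Hsp70*, small heat shock protein and *Hsp83* genes, and heat also induces *Hsromega*, whose nuclear transcripts gather RNA-binding proteins into omega speckles. Most of the step from inactive to active Hsf takes place on the protein, which an RNA count does not measure.

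The libraries held between 26533845 and 37109356 counts, and 3 features of them bear on the results. Between 9 hr replicates 2 and 3 the counts of most genes agreed within the sampling noise of paired reads, with a median chi-square per gene of 0.812 over 8163 genes, against 2.03 to 6.26 for the other 8 pairs of replicates. For the 413 genes with the highest counts in this pair the median was 2.81, above sampling noise, against 24.8 to 102 in the other pairs. Replicates 2 and 3 at 9 hr were counted as 1 sample in means and SDs, which leaves n = 2 at 9 hr, and were kept as separate libraries in the test. In addition, 0 hr replicate 3 and 18 hr replicate 2 had the highest levels of the 6 *Hsp70* rows, *Hsp68* and *Hsp22*, but not of *Hsp23*, *Hsp26* and *Hsp27*. *Hsp68*, an Hsp70 family gene, reached 386 and 256 CPM in them, against 14.9 to 136 CPM in the other 7 libraries. The gap was narrower for *Hsp70Ab*, at 1507 and 410 CPM in them and 381 CPM in 9 hr replicate 3. CPM are counts scaled for library size with edgeR's trimmed mean of M values (TMM). Lastly, markers of tissues other than the brain varied. The summed level of 5 fat body markers was between 19.6 and 777 CPM, and that of 3 hemocyte markers between 17.9 and 269 CPM, both highest in 18 hr replicate 1. The 4 muscle markers summed to between 5.93 and 50.8 CPM. The row *CG6520*, the older name of *insb*, was higher at 9 hr and at 18 hr than at 0 hr, by log2 fold changes of 3.49 and 3.30. Defining markers of the labelled tissue were present throughout: 6 neuroblast markers summed to between 1690 and 2414 CPM, 4 neuronal markers to between 1069 and 1328 CPM, and 4 glial markers to between 280 and 366 CPM.

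Among the 7 genes, *Hsc70-4* and *Hsp83* gave the most RNA per length. *Hsc70-4*, which encodes the constitutive cytosolic Hsp70 cognate, was at 2177 ± 111 CPM per kilobase of merged exons at 0 hr (SD, n = 3), rank 24 of the 8484 ranked genes. Only genes whose deposited name was in the annotation used for lengths were ranked. Tested genes under older names are therefore missing from the ranks, apart from those of the 7. *Hsp83* was at 1213 ± 271 CPM per kilobase (SD, n = 3), rank 75, and *Hop*, the bridge between both chaperones, at 169 ± 11.2 CPM per kilobase (SD, n = 3), rank 280. The J-protein gene *DnaJ-1* was at 96.7 ± 52.2 CPM per kilobase (SD, n = 3), rank 536, and *Hsf* at 37.2 ± 2.83 CPM per kilobase (SD, n = 3), rank 1840. The BAG-domain gene *stv* was at 5.10 ± 1.05 and *Hsromega* at 3.01 ± 0.475 CPM per kilobase (SD, n = 3 each), ranks 5608 and 6143. Neighbours in this order lay outside each other's SD at 0 hr, whereas at 9 hr *stv*, at 6.48 ± 1.88, and *Hsromega*, at 5.23 ± 1.04 CPM per kilobase (SD, n = 2 each), did not differ beyond their spread. The *Hsromega* value divides all reads of the locus by its 21710 bp of merged exon, over 7 annotated transcripts that the table does not separate. Together the 7 genes took between 0.847% of the counts, in 18 hr replicate 1, and 1.12%, in 18 hr replicate 2, most of which were reads of *Hsc70-4* and *Hsp83*.

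**Figure D1:**
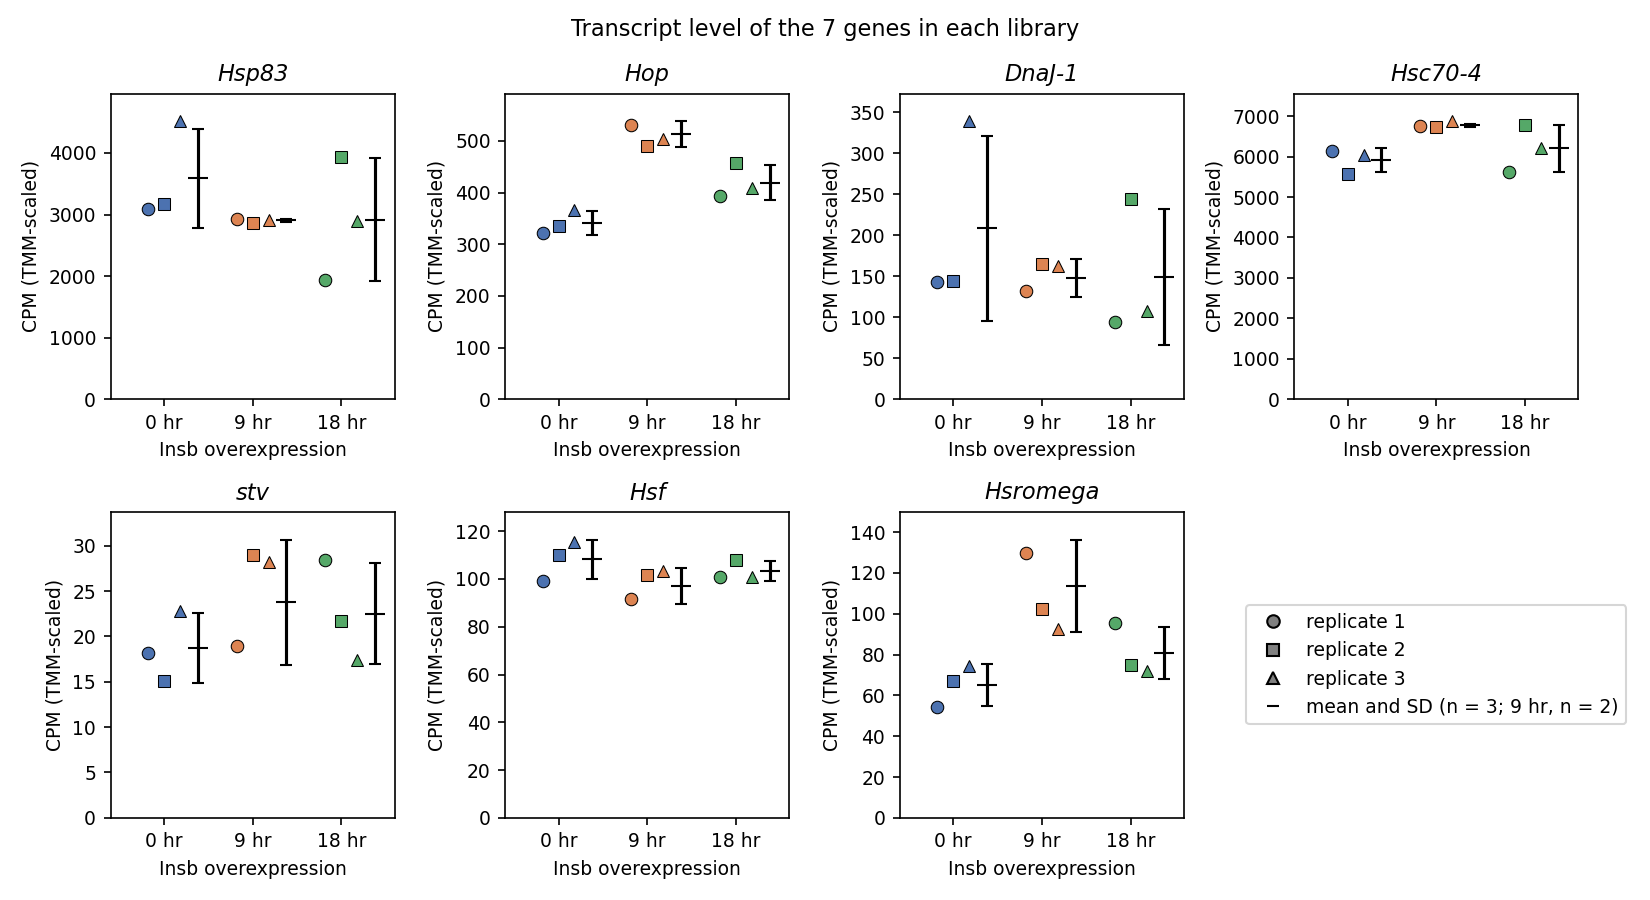
TMM-scaled CPM of each of the 7 genes (vertical axes, from 0) in the 9 libraries, grouped by hours of Insb overexpression; symbols mark the replicate, and bars the mean and SD with 9 hr replicates 2 and 3 averaged to 1 sample. All 9 hr libraries sit above all 0 hr libraries for *Hop*, *Hsc70-4* and *Hsromega*, and 0 hr replicate 3 and 18 hr replicate 2 are the highest libraries of their groups for *Hsp83*, *Hop*, *DnaJ-1* and *Hsf*.

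At 9 hr against 0 hr, 1 of the 7 genes, *Hsromega*, was called higher and 0 were called lower. A call needed a fold change of at least 1.5 and an adjusted p under 0.05 (edgeR's quasi-likelihood test, adjusted after Benjamini and Hochberg over all genes). Of all genes tested, 2.49% were called higher and 1.19% lower. At an unadjusted p under 0.05, 3 of the 7 were higher (*Hop*, *Hsc70-4* and *Hsromega*) and 0 lower, beside 15.3% and 13.3% of all genes, and DESeq2's Wald test also called 1 higher and 0 lower. This count depended on how the near-identical pair was used: with the pair summed to 1 library, *Hop* was called (adjusted p = 0.0214) and *Hsromega* was not (adjusted p = 0.0582). With the replicate number as a block, 0 were called. The share of all genes called also moved, with 134 called higher and 67 lower of 10985 tested when the pair was summed, against 269 and 129 of 10799. At 18 hr against 0 hr, 0 of the 7 were called in edgeR's quasi-likelihood test or in DESeq2's Wald test, beside 0.556% of all genes called higher and 0.278% called lower, and 1 (*Hop*) was higher and 0 lower at an unadjusted p under 0.05, beside 9.58% and 8.18%. At 18 hr against 9 hr, 0 of the 7 were called by either tool, beside 0.00926% of all genes called higher and 0% called lower, and 0 were higher and 2 (*Hop* and *Hsromega*) lower at an unadjusted p under 0.05, beside 4.75% and 6.09%. Complete separation of the libraries was more frequent: at 9 hr, 3 of the 7 genes lay above all 0 hr libraries and 1, *Hsp83*, below them, beside 21.1% and 18.9% of all genes tested. At 18 hr, 1 of the 7 (*Hop*) lay above all 0 hr libraries and 0 below, beside 11.4% and 9.53%, and 0 lay above all 9 hr libraries and 1 (*Hop*) below, beside 7.88% and 10.6%.

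**Figure D2:**
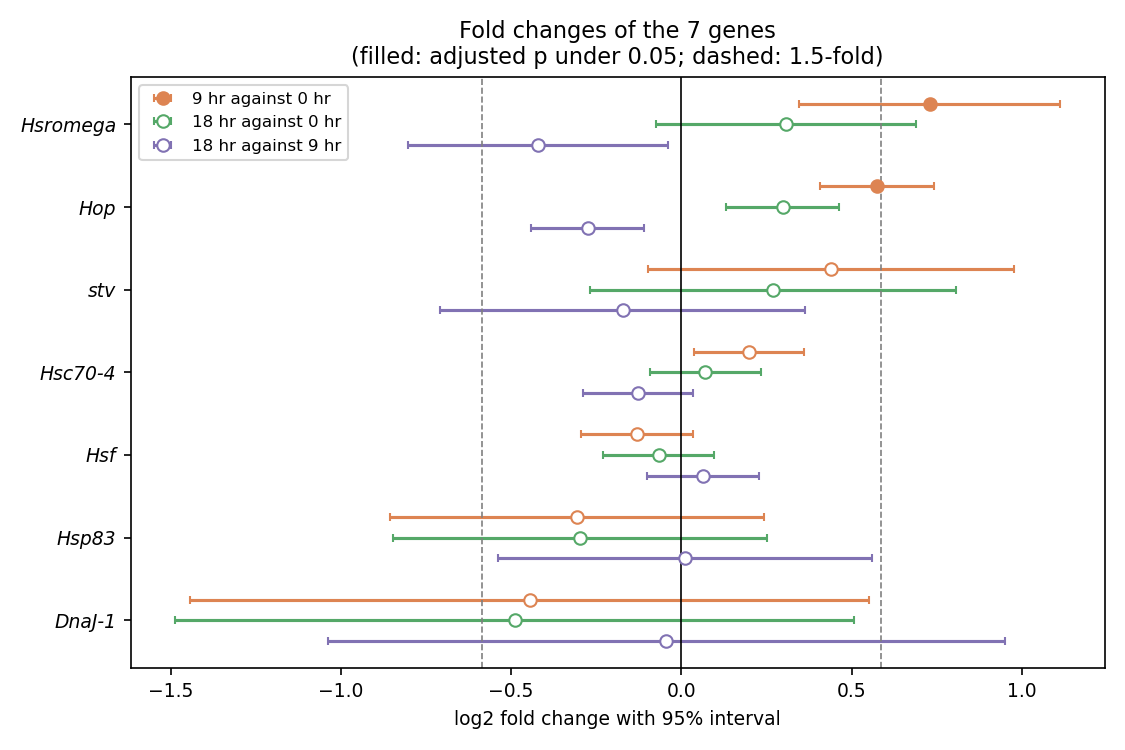
Log2 fold change (horizontal axis) of the 7 genes with its 95% interval from edgeR for 9 hr against 0 hr, 18 hr against 0 hr and 18 hr against 9 hr; filled points have an adjusted p under 0.05 and dashed lines mark a 1.5-fold change. The 2 filled points are *Hsromega* (0.73) and *Hop* (0.57) at 9 hr against 0 hr, and the widest intervals are those of *DnaJ-1*.

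*Hsp83* lies on chromosome 3L of dm6 from 3192969 to 3197059, on the plus strand (FBgn0001233), with its 2 merged exons separated by an intron. Of its 2960 bp of exon, 15 bp overlap *CG14966* on the other strand. *Hsp83* was at 3089, 3164 and 4514 CPM in the 0 hr libraries, the 9 hr libraries had 2923, 2871 and 2911 CPM, and the 18 hr libraries had 1941, 3930 and 2888 CPM. All 9 hr libraries were thus below the lowest 0 hr library, while the 18 hr libraries spanned nearly the whole range. The log2 fold change was -0.31 at 9 hr against 0 hr (SE 0.24, 95% interval -0.86 to 0.24, adjusted p = 0.439, edgeR's quasi-likelihood test) and -0.30 at 18 hr against 0 hr (95% interval -0.85 to 0.25, adjusted p = 0.596). Neither passed the test, and both intervals span a drop of more than 1.5-fold. Without 0 hr replicate 3, the value at 9 hr was -0.11 (adjusted p = 0.804) and that at 18 hr -0.10 (adjusted p = 0.890). The value at 18 hr against 0 hr was -0.07 without 18 hr replicate 1 (adjusted p = 0.859) and -0.57 without 18 hr replicate 2 (adjusted p = 0.226). At 18 hr against 9 hr the log2 fold change was 0.01 (95% interval -0.54 to 0.56, adjusted p = 0.994).

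The spread of *Hsp83* between libraries differed from group to group. The highest library exceeded the lowest by 1.46-fold at 0 hr, 1.02-fold at 9 hr and 2.03-fold at 18 hr. A spread at least this wide was found in 8.43%, 95.9% and 4.08% of the 7132 genes that averaged 10 CPM or more, whose median ratio was 1.13, 1.09 and 1.16. The narrow 9 hr range also includes replicate 1, which is not part of the near-identical pair. The high libraries, 0 hr replicate 3 and 18 hr replicate 2, were those with the highest *Hsp68*, and the lowest, 18 hr replicate 1, was that with the most fat body and hemocyte marker RNA. The part of either in the *Hsp83* values was not tested.

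*Hop* (2L, 295122 to 297449, plus strand, 4 merged exons, FBgn0024352) is listed today as *Stip1* and encodes the tetratricopeptide co-chaperone that holds Hsp70 and Hsp90 together. Its level was 322, 335 and 366 CPM in the 0 hr libraries, 531, 489 and 503 CPM in the 9 hr libraries, and 393, 456 and 409 CPM in the 18 hr libraries. The 3 groups did not overlap: all 9 hr libraries lay above all 18 hr libraries, and these above all 0 hr libraries. No other gene of the 7 was separated in this way. The share of all genes ordered like this was not counted. By pairs of groups without overlap, 21.1% of all genes tested were higher at 9 hr than at 0 hr. For 18 hr, 11.4% were higher than at 0 hr and 10.6% lower than at 9 hr. The near-identical pair enters these counts as 2 libraries. *Hop* averaged 513 ± 24.5 CPM at 9 hr (SD, n = 2) and 341 ± 22.7 CPM at 0 hr (SD, n = 3). The test, in which the near-identical pair enters as 2 libraries, gave a log2 fold change of 0.57 (SE 0.0729, 95% interval 0.41 to 0.74, adjusted p = 0.00431, edgeR's quasi-likelihood test). *Hop* thus rose past the adjusted p threshold, and its fitted 1.49-fold change was just short of the 1.5-fold needed for a call. With the pair summed to 1 library, so that it counts once, the log2 fold change was 0.59 (adjusted p = 0.0214), which is past 1.5-fold and called. Within the 0 hr and 18 hr groups, *Hop* was highest in the library with high *Hsp68*, at 366 CPM and 456 CPM.

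Of the 7 genes, only *Hop* had an adjusted p under 0.05 at 9 hr against 0 hr in all 9 fits that left out 1 library. Its adjusted p was between 0.00346 and 0.0226 in edgeR's quasi-likelihood test, with log2 fold changes between 0.53 and 0.63. It crossed 1.5-fold, and so was called, without 0 hr replicate 3 (0.63), without 9 hr replicate 2 (0.60), and with upper-quartile scaling (0.60). At 18 hr *Hop* averaged 419 ± 33.1 CPM (SD, n = 3). Against 0 hr its log2 fold change was 0.30 (95% interval 0.13 to 0.46) with an adjusted p of 0.0844 in edgeR's quasi-likelihood test and 0.00536 in DESeq2's Wald test. Against 9 hr it was -0.28 (95% interval -0.44 to -0.11), with adjusted p values of 0.274 in edgeR and 0.0310 in DESeq2. The 18 hr comparisons of *Hop* thus depend on the tool, and they share the 0 hr and 9 hr libraries with the comparison above.

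Because *Hsp83* and *Hop* act together, their levels per length were also set against each other within each library. The ratio of *Hop* to *Hsp83* was 0.153, 0.155 and 0.119 in the 0 hr libraries. It was 0.266, 0.249 and 0.253 at 9 hr and 0.296, 0.170 and 0.207 at 18 hr. Every 9 hr and every 18 hr library was thus above every 0 hr library. At 9 hr this follows from *Hop* lying above and *Hsp83* below all 0 hr libraries, and is not a further result. The ratio averaged 0.258 ± 0.0103 at 9 hr (SD, n = 2) and 0.142 ± 0.0203 at 0 hr (SD, n = 3). With 3 libraries against 3, which counts the near-identical pair as 2, an exact permutation test cannot go below p = 0.1. None was run. The ratio of *Hsp83* to *Hsc70-4* was lower at 9 hr than at 0 hr, with 0.398, 0.391 and 0.389 at 9 hr against 0.462, 0.521 and 0.686 at 0 hr, without overlap. This too follows from *Hsp83* lying below and *Hsc70-4* above all 0 hr libraries at 9 hr. At 18 hr the ratio of *Hsp83* to *Hsc70-4* was 0.317, 0.532 and 0.426. Replicate 1 was below every 0 hr and 9 hr library, and the other libraries lay between the 9 hr range and the highest 0 hr library.

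**Figure D3:**
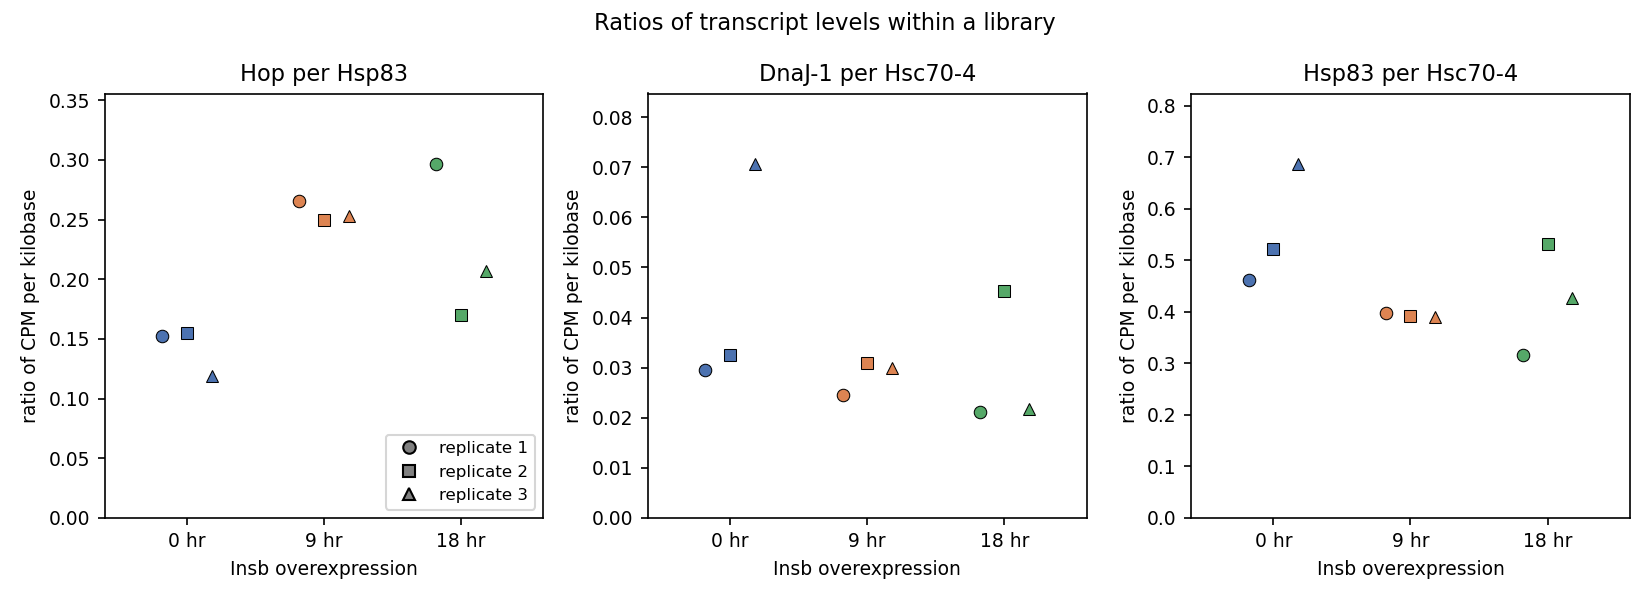
Ratios of CPM per kilobase within each library (vertical axes, from 0) for *Hop* per *Hsp83*, *DnaJ-1* per *Hsc70-4* and *Hsp83* per *Hsc70-4*, against hours of Insb overexpression; symbols mark the replicate. *Hop* per *Hsp83* is between 0.119 and 0.155 at 0 hr and higher in all 6 libraries at 9 and 18 hr, whereas *DnaJ-1* per *Hsc70-4* is highest in 0 hr replicate 3 (0.0706).

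*Hsc70-4* (3R, 15242687 to 15246614, plus strand, 5 merged exons, FBgn0266599) had the narrowest range of the 7 genes. Its libraries had 6133, 5567 and 6037 CPM at 0 hr, 6743, 6734 and 6871 CPM at 9 hr, and 5623, 6782 and 6217 CPM at 18 hr. The 9 hr libraries lay above all 0 hr libraries, and the 18 hr libraries overlapped both. The log2 fold change at 9 hr against 0 hr was 0.20 (SE 0.071, 95% interval 0.04 to 0.36), a small difference (1.15-fold) with an unadjusted p of 0.0226 and an adjusted p of 0.107 in edgeR's quasi-likelihood test. Leaving out 18 hr replicate 1, which is not in this comparison but enters the shared estimate of the spread, took the adjusted p to 0.0371. At 18 hr against 0 hr it was 0.07 (95% interval -0.09 to 0.23, adjusted p = 0.695) and at 18 hr against 9 hr -0.13 (95% interval -0.29 to 0.03, adjusted p = 0.545). These intervals leave no room for a 1.5-fold difference in either direction.

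*DnaJ-1* (3L, 5750029 to 5752189, minus strand, 1 merged exon, FBgn0263106) encodes an Hsp40, the J-protein that loads Hsp70, and was the most variable of the 7 genes within the 0 hr and 18 hr groups. At 0 hr the libraries had 144, 144 and 339 CPM, at 9 hr 132, 165 and 163 CPM, and at 18 hr 94.7, 244 and 107 CPM. The high value of each outer group fell in the libraries with the highest *Hsp68*, and the other 4 libraries of these groups lay between 94.7 and 144 CPM. The highest library exceeded the lowest by 2.36-fold at 0 hr and 2.58-fold at 18 hr, a spread matched or passed by 2.57% and 2.40% of the 7132 genes. *DnaJ-1* had a log2 fold change of -0.45 at 9 hr against 0 hr (SE 0.435, 95% interval -1.44 to 0.55, adjusted p = 0.540, edgeR's quasi-likelihood test), -0.49 at 18 hr against 0 hr (95% interval -1.49 to 0.51, adjusted p = 0.641) and -0.04 at 18 hr against 9 hr (95% interval -1.04 to 0.95, adjusted p = 0.979).

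The sign of the values against 0 hr depended on 1 library. Without 0 hr replicate 3, *DnaJ-1* had a log2 fold change of 0.09 at 9 hr against 0 hr (adjusted p = 0.895) and of 0.05 at 18 hr against 0 hr (adjusted p = 0.965). Without 18 hr replicate 2 it had -1.05 at 18 hr against 0 hr (adjusted p = 0.221) and -0.60 at 18 hr against 9 hr (adjusted p = 0.539). Leaving out both was a choice made after seeing that *DnaJ-1* and *Hsp83* stood highest in them within their groups. Without both, *DnaJ-1* had 0.09 at 9 hr against 0 hr (adjusted p = 0.605), -0.51 at 18 hr against 0 hr (adjusted p = 0.152) and -0.60 at 18 hr against 9 hr (adjusted p = 0.143). None of these passed edgeR's test. Per length, the ratio of *DnaJ-1* to *Hsc70-4* was 0.0294, 0.0325 and 0.0706 at 0 hr, 0.0245, 0.0308 and 0.0299 at 9 hr, and 0.0212, 0.0453 and 0.0217 at 18 hr. In the 0 hr and 18 hr groups the high ratio was again that of the library with high *Hsp68*.

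*stv* (starvin, 3L, 13477541 to 13483515, plus strand, 5 merged exons, FBgn0086708) encodes a BAG-domain co-chaperone of Hsc70-4 best known from muscle. It had 18.2, 15.1 and 22.8 CPM in the 0 hr libraries, 18.9, 29.0 and 28.3 CPM in the 9 hr libraries, and 28.4, 21.7 and 17.4 CPM in the 18 hr libraries. All 3 groups overlapped, and the near-identical 9 hr pair stood above the remaining 9 hr library. *stv* had a log2 fold change of 0.44 at 9 hr against 0 hr (SE 0.235, 95% interval -0.10 to 0.98, adjusted p = 0.257), 0.27 at 18 hr against 0 hr (adjusted p = 0.635) and -0.17 at 18 hr against 9 hr (adjusted p = 0.812) in the quasi-likelihood test of edgeR. The 3 libraries with the highest *stv* were also those with the highest fat body marker sums, 298 and 303 CPM in the 9 hr pair and 777 CPM in 18 hr replicate 1, against 19.6 to 148 CPM in the others. Muscle markers were highest in 18 hr replicate 1, at 50.8 CPM, and between 10.5 and 11.6 CPM in all 9 hr libraries. Their part in the *stv* values was not tested.

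*Hsf* (2R, 18130303 to 18134634, minus strand, 8 merged exons, FBgn0001222), the only heat shock transcription factor gene of the fly, had the second narrowest range of the 7. *Hsf* was at 99.2, 110 and 115 CPM in the 0 hr libraries, at 91.7, 102 and 103 CPM in the 9 hr libraries, and at 101, 108 and 101 CPM in the 18 hr libraries. The groups overlapped, and the highest of all libraries exceeded the lowest by 1.26-fold. *Hsf* had a log2 fold change of -0.13 at 9 hr against 0 hr (SE 0.0715, 95% interval -0.29 to 0.03, adjusted p = 0.268), -0.07 at 18 hr against 0 hr (95% interval -0.23 to 0.10, adjusted p = 0.717) and 0.06 at 18 hr against 9 hr (95% interval -0.10 to 0.23, adjusted p = 0.776) in the quasi-likelihood test of edgeR. A difference of 1.5-fold lies outside all 3 intervals. In the libraries with high *Hsp68*, *Hsf* was at 115 and 108 CPM, the highest of its group in each case.

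*Hsromega* (3R, 21296127 to 21317836, plus strand, FBgn0001234) is a long noncoding RNA locus, and its span also holds *mir-4951*. Levels were 54.1, 67.3 and 74.5 CPM in the 0 hr libraries, 130, 103 and 92.5 CPM in the 9 hr libraries, and 95.3, 75.0 and 72.1 CPM in the 18 hr libraries. All 9 hr libraries lay above all 0 hr libraries, and the 18 hr libraries overlapped both. *Hsromega* averaged 114 ± 22.7 CPM at 9 hr (SD, n = 2) and 65.3 ± 10.3 CPM at 0 hr (SD, n = 3). In the test, with the pair as 2 libraries, it was called higher with a fitted 1.66-fold change, a log2 fold change of 0.73 (SE 0.167, 95% interval 0.35 to 1.11, adjusted p = 0.0297 in the quasi-likelihood test of edgeR). At 18 hr it averaged 80.8 ± 12.6 CPM (SD, n = 3), with a log2 fold change of 0.31 against 0 hr (95% interval -0.08 to 0.69, adjusted p = 0.395) and of -0.42 against 9 hr (95% interval -0.80 to -0.04, adjusted p = 0.426).

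The call of *Hsromega* at 9 hr was close to the threshold. Of the 6 fits that left out 1 of the compared libraries, only that without 0 hr replicate 3 kept an adjusted p under 0.05, at 0.0423. The others gave 0.0778 without 0 hr replicate 1, 0.0819 without 0 hr replicate 2, 0.10 without 9 hr replicate 1, 0.0709 without 9 hr replicate 2 and 0.0507 without 9 hr replicate 3. With the near-identical pair summed to 1 library the log2 fold change was 0.80 with an adjusted p of 0.0582, whereas DESeq2's Wald test gave 0.72 and 0.000463. In the libraries with the highest *Hsp68*, *Hsromega* was the highest of its group in 0 hr replicate 3, at 74.5 CPM, and not in 18 hr replicate 2, at 75.0 CPM. Both *Hsromega* and *Hop* were highest in 9 hr replicate 1, the library with the lowest fat body marker sum (19.6 CPM). Within the 18 hr group, *Hsromega* was instead highest in replicate 1, at 95.3 CPM, the library with the highest such sum (777 CPM). *Hop* was lowest of its group there, at 393 CPM. The part of fat body RNA in these values was not tested. The near-identical pair itself differed at *Hsromega*, with a chi-square of 16.8 between 9 hr replicates 2 and 3. The value was larger for *Hsc70-4* (31.1), and was 5.46 for *Hsp83* and 4.73 for *Hop*. It was 0.595 for *DnaJ-1*, 0.381 for *stv* and 0.283 for *Hsf*.

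The other chaperone genes were taken as lists, which were written with earlier results of these data known. They are set beside 2.49% of all genes called higher at 9 hr and 6.62% higher by the adjusted p alone. In the edgeR tests of all lists the near-identical 9 hr pair entered as 2 libraries, and list results with the pair summed are not given. Over all genes, summing the pair took the calls at 9 hr from 269 to 134 higher and from 129 to 67 lower. Of 13 genes for Hsp90 family members and co-chaperones, all tested, 3 were called higher at 9 hr against 0 hr and 0 lower, with a median log2 fold change of 0.21, against 0.00 over all genes. These 3 were *FKBP59*, which encodes an immunophilin that binds Hsp90 (0.70, adjusted p = 0.00166), *CG1416*, the *Ahsa1* gene for the activator of the Hsp90 ATPase (0.73, adjusted p = 0.00497), and *Dpit47*, for a tetratricopeptide protein that binds Hsp90 (0.61, adjusted p = 0.000942). Also higher by the adjusted p alone were *Cdc37*, for the co-chaperone of kinase clients (0.42, adjusted p = 0.0208), and *nudC* (0.41, adjusted p = 0.00718). *FKBP59* had 469, 414 and 418 CPM at 9 hr, against 259, 254 and 288 CPM at 0 hr, and *CG1416* had 357, 310 and 312 CPM at 9 hr, against 182, 190 and 219 CPM at 0 hr. As for *Hop*, all 9 hr libraries of both genes lay above all 0 hr libraries, 0 hr replicate 3 included. This held for 21.1% of all genes tested.

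Of the 13 genes for Hsp70 family members and co-chaperones, 12 were tested and 0 were called in either direction at 9 hr by edgeR's quasi-likelihood test or DESeq2's Wald test, with a median log2 fold change of 0.05. At an unadjusted p under 0.05, 3 were higher and 2 lower, beside 15.3% and 13.3% of all genes. By the adjusted p alone 1 was higher, *Hsc70Cb*, for an Hsp110 that exchanges nucleotide on Hsp70 (0.33, adjusted p = 0.0231), and 1 was lower, the J-protein gene *mrj* (-0.23, adjusted p = 0.0143). Of the 8 genes for the cytosolic chaperonin, which folds actin and tubulin, 0 were called by either tool and 5 were higher at an unadjusted p under 0.05, beside the same 15.3%. All 8 had positive values (median 0.14), and *Cctgamma*, *CG5525* and *Cct5* were higher by the adjusted p alone. Of the 6 mitochondrial chaperone genes, 5 were tested and 1 was called higher, *CG11267* (*Hsp10*), at 0.82 (adjusted p = 0.000449). Its partner *Hsp60* (0.40, adjusted p = 0.00818) and the mitochondrial Hsp70 gene *Hsc70-5* (0.40, adjusted p = 0.0109) were higher by the adjusted p alone.

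The 11 strongly heat-inducible genes encode the Hsp70 proteins, Hsp68 and small heat shock proteins. At 9 hr against 0 hr, 1 was called higher, *Hsp23* (1.06, adjusted p = 0.0117), and the median log2 fold change was -0.21. Without 0 hr replicate 3 and 18 hr replicate 2, 8 were called higher and the median was 2.20. Over all genes, 232 of the 10984 tested were called higher in that fit. These libraries were picked after seeing the data, because *DnaJ-1* and *Hsp83* stood highest there within their groups. The *Hsp70* rows, *Hsp68* and *Hsp22* were also highest there, so leaving out 0 hr replicate 3 favoured a rise at 9 hr in advance. In the same fit 0 were called at 18 hr against 0 hr, with a median of 0.56. Over all 10984 genes, 25 were called higher and 9 lower there. The summed level of the 11 genes was 1985, 2826 and 7600 CPM at 0 hr, 4217, 5698 and 5840 CPM at 9 hr, and 2951, 5998 and 3040 CPM at 18 hr. The 6 *Hsp70* rows are near-identical copies, and how reads were divided among them is uncertain. *Hsp23* itself had 2477, 2049 and 2074 CPM at 9 hr, against 754, 1125 and 1289 CPM at 0 hr. These groups thus did not overlap, 0 hr replicate 3 included. Of all genes tested, 21.1% lay above all 0 hr libraries in this way. *Hsp27* had 70.6 CPM in 9 hr replicate 1, against 756 to 1075 CPM in the other 8 libraries.

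**Figure D4:**
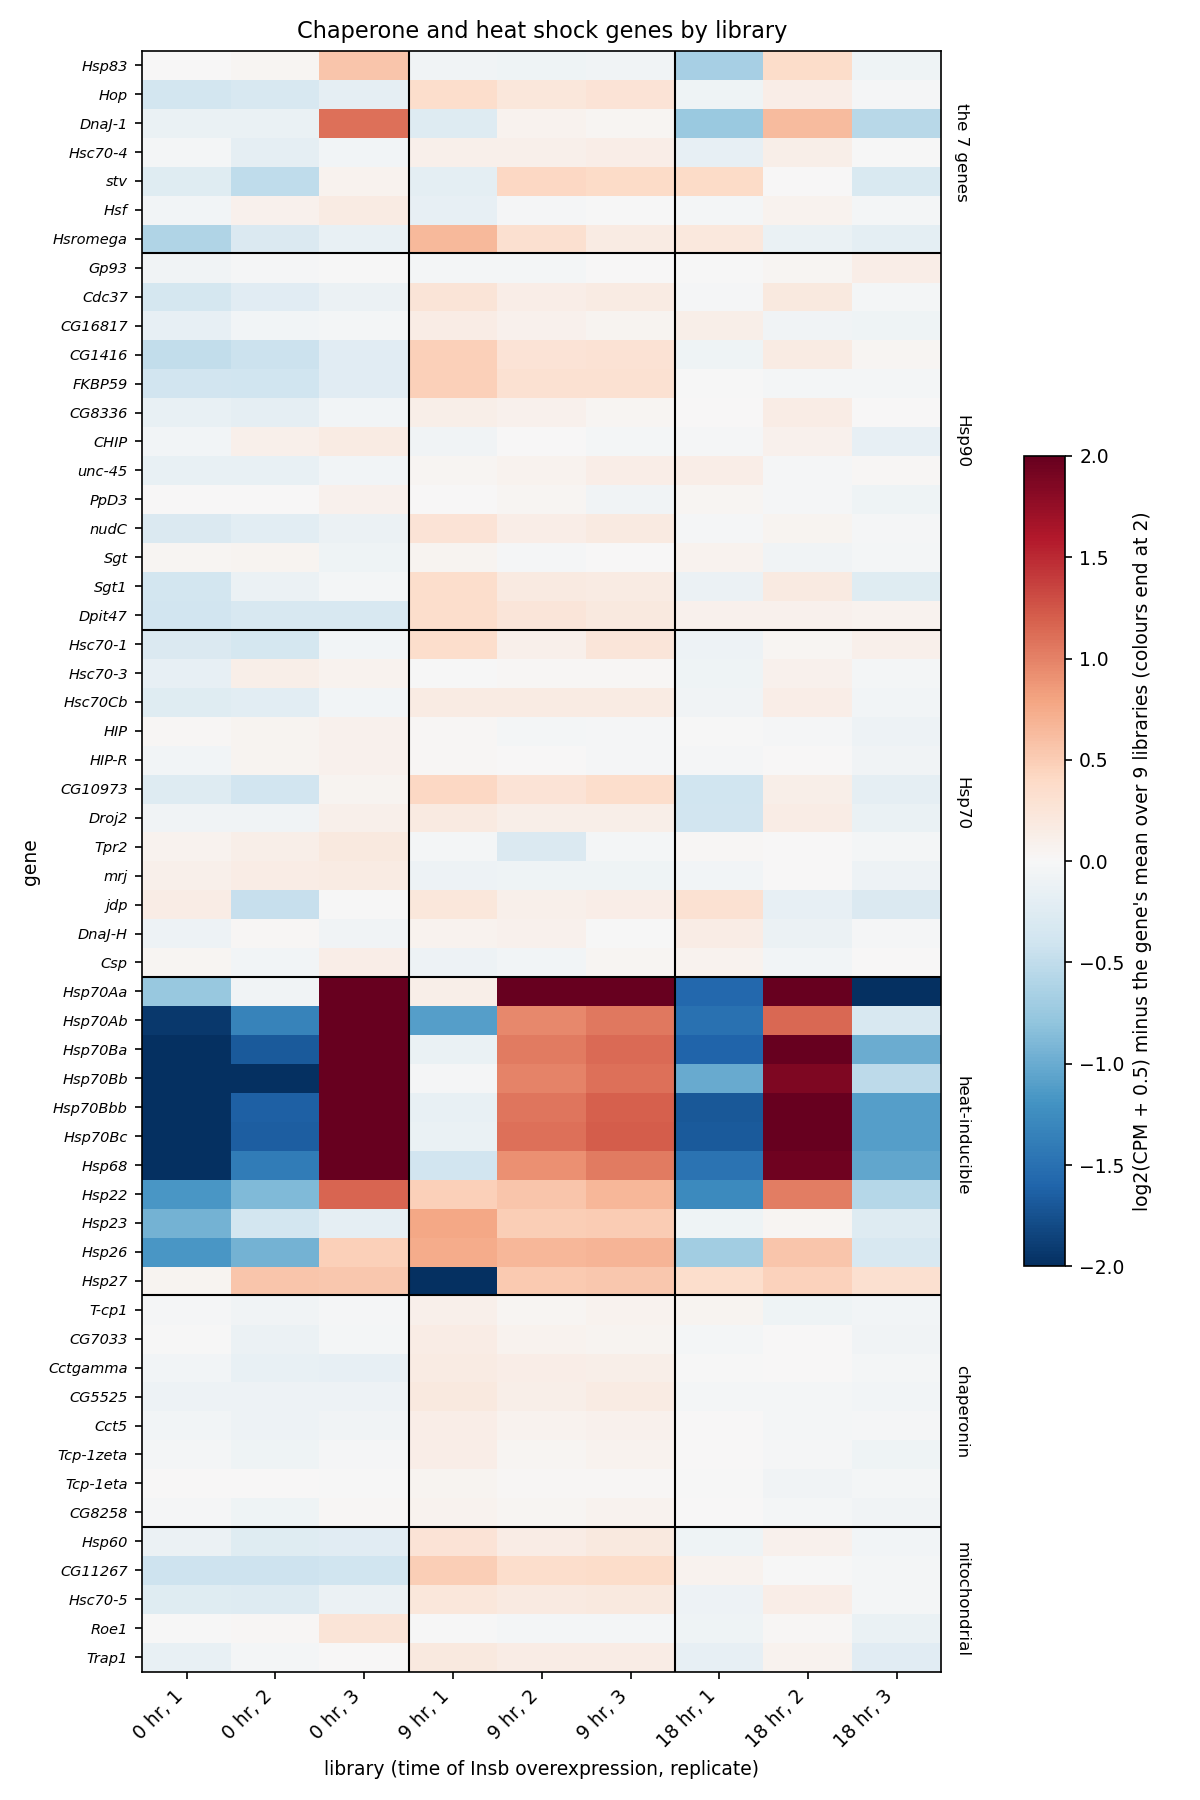
Log2(CPM + 0.5) minus the mean of each gene over the 9 libraries (colour, ending at 2 and -2) for the 7 genes and the chaperone lists (rows) in each library (columns). Most rows of the heat-inducible block are red in 0 hr replicate 3 and 18 hr replicate 2, as are *Hsp83* and *DnaJ-1*. Most of that block is also red in 9 hr replicates 2 and 3, where *Hsp68* had 125 and 136 CPM. *Hop*, *FKBP59*, *CG1416* and *CG11267* are red in all 9 hr libraries.

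Of 6 genes for nuclear proteins that associate with *Hsromega* transcripts, 0 were called at 9 hr against 0 hr by edgeR's quasi-likelihood test or DESeq2's Wald test, and 4 were lower at an unadjusted p under 0.05, beside 13.3% of all genes. By the adjusted p alone 3 were lower, beside 5.22% of all genes, and the median log2 fold change was -0.34. The 3 were *Saf-B* (-0.37, adjusted p = 0.0062), *Hrb87F*, for an hnRNP of the omega speckles (-0.34, adjusted p = 0.00367), and *sqd*, for another hnRNP (-0.33, adjusted p = 0.0213). *Hrb87F* had 432, 457 and 462 CPM at 9 hr, against 563, 581 and 569 CPM at 0 hr. *Pep*, for a zinc finger protein of active puffs, had 987 CPM in 0 hr replicate 3 and between 348 and 439 CPM in the other 8 libraries. *sqd* was also highest in 0 hr replicate 3, at 1485 CPM. Without 0 hr replicate 3 and 18 hr replicate 2, a choice made after seeing the data, the median of this list was -0.21.

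At 18 hr against 0 hr, 0 genes of any of these lists were called by edgeR's quasi-likelihood test or DESeq2's Wald test. At an unadjusted p under 0.05 in edgeR, 7 of the 13 Hsp90 genes were higher, beside 9.58% of all genes. So were 3 of the 5 mitochondrial genes, 1 of the 12 Hsp70 genes and 1 of the 8 chaperonin genes. Lower were 3 of the 6 genes for *Hsromega*-associated proteins and 1 of the 12 Hsp70 genes, beside 8.18% of all genes. By the adjusted p alone 2 were higher, *Dpit47* (0.42, adjusted p = 0.00825) and *CG11267* (0.42, adjusted p = 0.0126), beside 0.907% of all genes, and 0 were lower, beside 0.75%. At 18 hr against 9 hr, 0 passed the adjusted p in edgeR, and DESeq2's Wald test called 1, *Hsp23*, lower. At an unadjusted p under 0.05, 4 of the 13 Hsp90 genes, 5 of the 8 chaperonin genes and 4 of the 5 mitochondrial genes were lower at 18 hr than at 9 hr, beside 6.09% of all genes. The medians there were -0.11 for the Hsp90 list, -0.12 for the chaperonin and -0.22 for the mitochondrial list, against 0.01 over all genes. A positive value was found in 0 of 8 chaperonin and 0 of 5 mitochondrial genes. In the Hsp70 and the heat-inducible lists 1 gene each was lower. The 6 genes for *Hsromega*-associated proteins went the other way at 18 hr against 9 hr. Of them, 4 were higher at an unadjusted p under 0.05 in edgeR, beside 4.75% of all genes. Their median was 0.17.

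**Figure D5:**
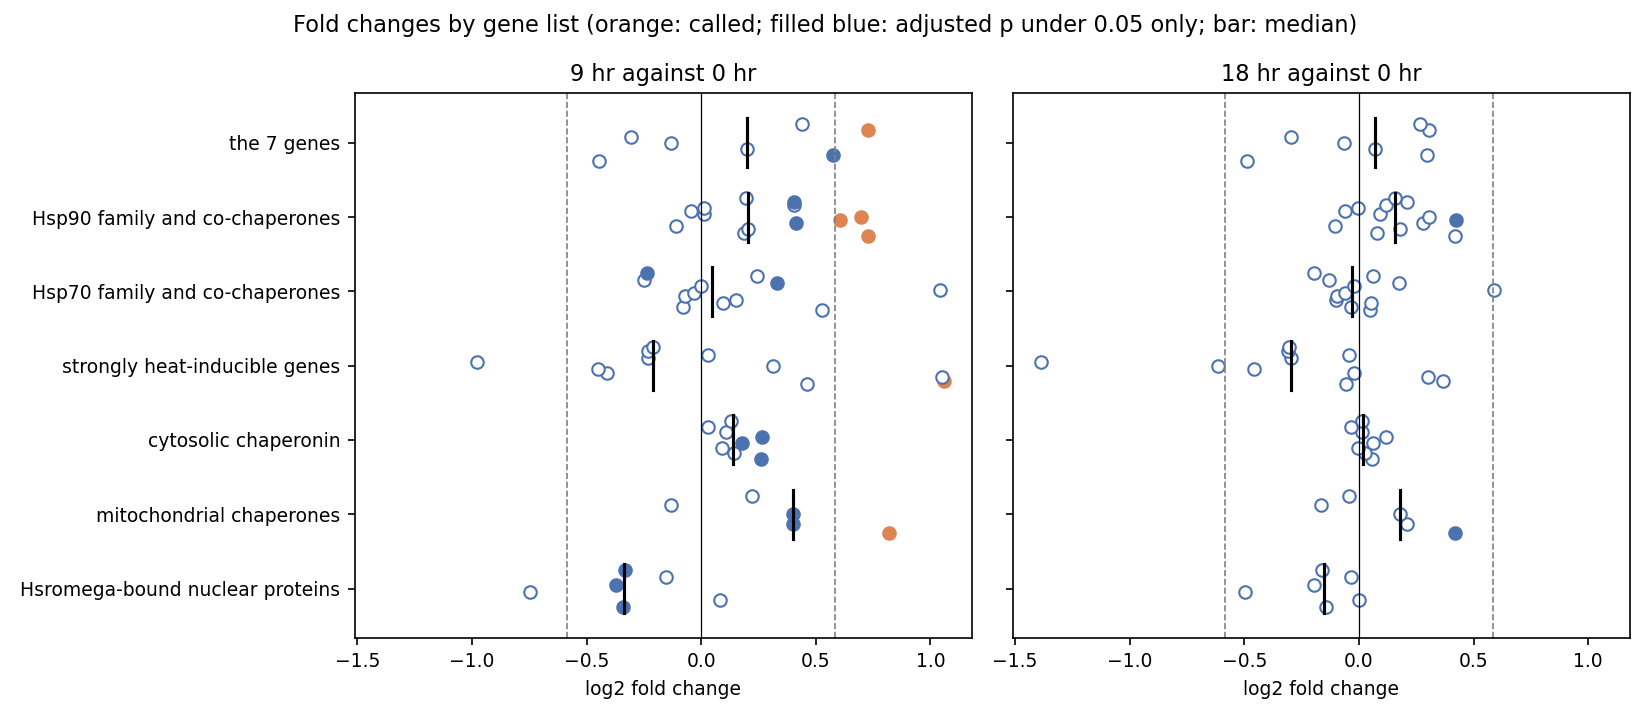
Log2 fold changes (horizontal axes) of the 7 genes and of each chaperone list at 9 hr (left) and 18 hr (right) against 0 hr; each point is a gene, orange where called, filled blue where the adjusted p alone was under 0.05, and the black bar is the list's median. Points called at 9 hr lie in the 7 genes, the Hsp90, the heat-inducible and the mitochondrial lists, and no gene is called at 18 hr.

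The patterns over the 9 libraries were compared by the root mean square difference in log2 CPM, after each gene's mean was removed, with 7125 other genes of at least 10 CPM. The genes nearest to *Hsp83* were *CG5789* (0.0856), *CG11652* (0.111) and *bam* (0.112), against a median of 0.331 over all candidates. *CG11652* was also the gene nearest to *DnaJ-1* (0.285), at the same distance as *Hsp83* itself (0.285). Nearest to *Hop* were *CG17359* (0.0467), the transcriptional coactivator gene *mbf1* (0.0474) and *Dip2* (0.0505), which had log2 fold changes of 0.60, 0.62 and 0.47 at 9 hr against 0 hr. *Hsromega* lay closest to *CG32582* (0.123), *CG17931* (0.131) and *CG30203* (0.147), and among the 7 genes to *Hop* (0.198). *Hop* was 0.424 from *Hsp83*, farther than from *Hsc70-4* (0.168). The genes nearest to *Hsc70-4* (*Top3beta*, *CG3704* and *CG3198*) and to *Hsf* (*slmb*, *vimar* and *CG31998*) lay at 0.0331 to 0.0394 and at 0.0329 to 0.0364, against medians of 0.161 and 0.148 over all candidates. For *stv* they were *SPR*, *cpx* and *Slimp*, at 0.185 to 0.214. All of these distances come from the same 9 libraries, and the near-identical pair enters them as 2 points.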

How the data were processed

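Paired-end poly-A RNA sequencing was analysed from the table of whole-number counts per gene that the authors deposited, made with HISAT2 2.1.0 on dm6 and StringTie 1.3.4, without normalization. Per the submitters' notes, FastQC 0.11.3 and DESeq2 1.20.0 were also used. The annotation and the use of strand in counting are not given in the sources used here, so reads of overlapping genes are uncertain. Of the gene names, 11086 were current symbols, 3391 older ones and 83 unmatched. The row *Hop* was taken as *Stip1* because the JAK gene *hop* has its own row. *l(2)tid* could not be resolved and was left out.

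Groups came from the sample labels. Counts were filtered with filterByExpr (10799 of 14560 genes), scaled by TMM, and a single model with 1 mean per time point was fitted to the 9 libraries in edgeR 4.0.16 under R 4.3.3 (glmQLFit, glmQLFTest; biological coefficient of variation 0.239), and p values were adjusted over all genes. Library totals were between 26533845 and 37109356 counts, and the lowest count of any of the 7 genes in a library was 447 (*stv*). P values measure only the spread between these libraries. Lengths and coordinates come from the Ensembl annotation of dm6. The script was tested on simulated data. Alternatives were RLE and upper-quartile scaling, TMM without chaperone genes, other filters, DESeq2 1.42.0, fits of the compared libraries alone, a replicate block, each library left out, the near-identical pair summed, and other thresholds. Genes named with levels or fold changes are the 7, those of the lists, and for each of the 7 the 3 genes nearest in pattern. *CG6520* (*insb*), the gene that the study induced, is named in addition and belongs to none of these sets. The 7 genes and the lists were chosen with earlier results of these data known. Sequences were not used here.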

Additional observations from a re-analysis of the deposited data

How the results depend on the processing

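Across the alternatives, 414 of 441 fold changes of the 7 genes kept their direction and their side of the call, 13 changed sign, 8 lost a call (all *Hsromega* at 9 hr) and 6 gained one (all *Hop* at 9 hr). The number of genes called higher at 9 hr against 0 hr, 1 in the model used here, was 2 with upper-quartile scaling, 2 with no fold threshold, 2 without 0 hr replicate 3 and 18 hr replicate 2 (chosen after seeing the data), 0 in a test against a 1.5-fold change, and between 0 and 2 when leaving out 1 library. With the near-identical pair summed, or without 9 hr replicate 2, it was 1, but that gene was *Hop* and not *Hsromega*. In the other comparisons and directions 0 were called under every alternative. The 13 changes of sign were in values that no fit called. *DnaJ-1* at 9 hr against 0 hr was 0.093 without 0 hr replicate 3 and 0.095 without it and 18 hr replicate 2, and at 18 hr against 0 hr 0.049 without 0 hr replicate 3. *DnaJ-1* at 18 hr against 9 hr was 0.013 and 0.0031 without 9 hr replicate 2 or 3, 0.20 and 0.14 without 18 hr replicate 1 or 3, and 0.0065 with the pair summed. *Hsp83* at 18 hr against 9 hr was -0.0077 with upper-quartile scaling, -0.0074 with TMM factors from other genes, -0.26 without 18 hr replicate 2, and -0.26 also without 0 hr replicate 3. When leaving out 1 library, *DnaJ-1* was between -0.66 and 0.093 at 9 hr against 0 hr, between -1.05 and 0.049 at 18 hr against 0 hr and between -0.60 and 0.20 at 18 hr against 9 hr, and *Hsp83* between -0.26 and 0.23 at 18 hr against 9 hr. The cause of these changes was not tested. The level of *Hsc70-4* at 0 hr was 2497 CPM per kilobase of its longest transcript in place of 2177.

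With the replicate number as a block, 0 of the 7 genes were called (*Hsromega*, adjusted p = 0.0625) and *Hsp83* at 18 hr against 9 hr was -0.033. Correlations of the deviations between libraries with the same number were between -0.28 and 0.39, highest for replicate 1 at 0 hr and 18 hr. Between libraries with different numbers they were between -0.40 and 0.52, highest for 0 hr replicate 3 and 18 hr replicate 2. The labels do not say that a number is shared.

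Over all genes, 269 were called higher and 129 lower at 9 hr and 60 and 30 at 18 hr against 0 hr. When leaving out 1 library these were between 123 and 296, 64 and 157, 26 and 84, and 9 and 37. The counts at 9 hr moved by over 1.5 times without 0 hr replicate 2 (145 and 78) and without 9 hr replicate 1 (123 and 64), 2 (142 and 72) or 3 (138 and 73). At 18 hr the count of higher genes did so without 0 hr replicates 1 (30) or 2 (30), 9 hr replicates 2 (33) or 3 (29) and 18 hr replicates 2 (38) or 3 (26), and that of lower genes without 0 hr replicates 1 (14) or 3 (17), 9 hr replicates 2 (17) or 3 (16) and 18 hr replicate 3 (9). DESeq2 called 339 and 203, and 125 and 74. The fit with the pair summed called 134 and 67, and 32 and 17. The block gave 200 and 95, and 32 and 18. The test against 1.5-fold gave 22 and 3, and 7 and 0. The compared libraries alone gave 276 and 143, and 17 and 8.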
